A study of Mus musculus with 2 samples.

Results

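The E2 ubiquitin-conjugating enzymes were described as the genes whose mouse symbol begins with Ube2. Such a symbol was carried by 40 of 36227 gene rows. Counts were present for 36 of them, and 29 averaged 20 counts or more across the pair of libraries, the floor used below. The other 7 counted members lay below that floor, and 4 (Ube2dnl1, Ube2dnl2, Ube2l6 and Ube2nl) had no count in either library. The prefix also takes in genes that are not E2 enzymes. Ube2d-ps, Ube2d4 and Ube2nl are annotated as pseudogenes, Ube2uos is an antisense gene of Ube2u, and Ube2cbp encodes a protein named for binding Ube2c. That leaves 35 protein-coding genes with the E2 fold, of which 27 lay above the floor. Ube2d2a was not analysed here.

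The RNA came from mature oocytes in metaphase of meiosis II (MII) that ICR females had ovulated naturally. The aged library was a pool of 18 oocytes from 6 females of 12 months, and the young library, the control, a pool of 18 oocytes from 6 females of 3 months, with 3 oocytes from each female. The labels give no treatment other than age. With 1 library per age, no difference between the ages below has a replicate check, no test was run and no p-value was computed. Differences are aged over young ratios of counts, each divided by its library's total, with 95% intervals that cover counting error only, and a gene is called higher or lower where the ratio is at least 2-fold.

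Ubiquitin is passed from an E1 activating enzyme to the catalytic cysteine of an E2, and from there, with the help of an E3 ligase, to a lysine of the target protein. The E2 largely sets which kind of chain is built, and a few E2s carry SUMO, NEDD8 or other ubiquitin-like proteins instead. In oocytes the anaphase-promoting complex, an E3, marks securin and cyclin B for destruction at both meiotic divisions. It uses Ube2c to start chains and Ube2s to extend them, and at MII its activity is held back until fertilisation.

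The catalytic site is shown here for 5 of the 7 members at least 2-fold apart between the libraries, for the pair that serves the anaphase-promoting complex and for Ube2k, the member with most counts, since it is what makes them E2s. Ube2u and Ube2j1, also 2-fold apart, were not matched by the search described below. Each line is 45 bases of coding sequence, 15 codons, on the sense strand from 5′ to 3′, taken from GENCODE M21 transcripts (GRCm38). Capitals mark the codons of the tripeptide that precedes the active site and the codon of the catalytic cysteine.
Ube2c: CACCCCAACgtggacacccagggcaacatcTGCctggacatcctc
Ube2s: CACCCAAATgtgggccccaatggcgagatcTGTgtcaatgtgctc
Ube2t: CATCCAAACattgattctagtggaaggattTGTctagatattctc
Ube2n: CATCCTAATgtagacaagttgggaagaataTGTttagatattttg
Ube2g1: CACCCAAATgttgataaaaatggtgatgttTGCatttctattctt
Ube2e1: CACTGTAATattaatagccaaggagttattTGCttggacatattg
Ube2e3: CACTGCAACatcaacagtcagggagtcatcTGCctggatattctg
Ube2k: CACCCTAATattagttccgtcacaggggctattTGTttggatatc

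All 8 stretches are coding exon sequence. In GRCm38 they lie at chr2:164771947-164771991 in exon 4 of Ube2c, at chr7:4810467-4810511 in exon 3 of Ube2s (minus strand) and at chr1:134971296-134971340 in exon 4 of Ube2t. The stretch of Ube2n lies at chr10:95541403-95541447 in exon 2, that of Ube2e1 at chr14:18284353-18284397 in exon 5 (minus strand), that of Ube2e3 at chr2:78918711-78918755 in exon 5 and that of Ube2k at chr5:65581410-65581454 in exon 4. That of Ube2g1 is split by an intron between exons 3 and 4, within chr11:72673048-72677739. A search of the coding sequences for His-Pro-Asn or His-Cys-Asn followed by cysteine 8 or 9 codons after the asparagine matched 24 of 36 members with a coding sequence. His-Pro-Asn was found in 21 of them. The 3 members of the Ube2e family, Ube2e1, Ube2e2 and Ube2e3, were those with His-Cys-Asn. The spacing was 8 codons in 22 members and 9 in Ube2h and Ube2k. The other members were not matched by this pattern.

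In total 18597656 counts were assigned to genes in aged oocytes and 19475110 in young oocytes. All 10 oocyte marker genes were above the floor. They summed to 95972 CPM in the aged library, against 176873 CPM in the young one, CPM being the count scaled to the library total. Most of both sums came from Gdf9 and H1foo. Gdf9 had 42795 CPM in aged and 97099 CPM in young oocytes, and H1foo 39296 and 53502 CPM. Taken singly, Gdf9, Oosp1 and Zp1 were called lower and Nlrp5 was called higher. The other 6 oocyte markers stayed within 2-fold, and the median log2 ratio of all 10 was −0.56. Of 20 cumulus and granulosa markers, 10 had no count in the aged library and 8 none in the young one, among them Amh and Foxl2. Their summed level was 67.8 CPM in the aged library, against 36.6 CPM in the young one, most of it from Cyp19a1 with 56.8 and 22.4 CPM. Without Cyp19a1 the sum was 10.97 CPM in aged and 14.2 CPM in young oocytes, so its direction turned. Vim had 0 counts in aged and 51 in young oocytes, Cyp11a1 1 and 27, and Nr5a2 106 and 38. Of 6 blood markers in the table the aged library had no count and the young one 1 count, and 5 oviduct markers summed to 23 counts in the aged and 29 in the young library. The part of these cells in the differences below was not tested, and fewer transcripts per oocyte and fewer oocytes contributing RNA cannot be told apart. The median log2 ratio over all 10211 genes above the floor was 0.43, so that a typical gene was higher in the aged library with this scaling.

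E2 genes were on the whole close to that general shift, with a few members far from it. The 2-fold mark was passed by 6 of 29 members towards the aged library, against 27.9% of all genes, and by 1 member towards the young library, against 10.6% of all genes. The higher ones were Ube2g1, Ube2e1, Ube2u, Ube2e3, Ube2n and Ube2j1, and the lower one was Ube2t. The members' shares are 20.7% and 3.45%, so neither direction was more frequent than among all genes. The whole counting interval lay beyond 2-fold for 5 higher members and 1 lower member, against 18.0% and 6.35% of all genes. A log2 ratio above 0 was seen for 18 members, 62.1% of those above the floor, against 66.4% of all genes. The members' median log2 ratio was 0.31, with quartiles of −0.26 and 0.78, which is −0.11 relative to the median gene. Relative to the median gene 3 members (Ube2g1, Ube2e1 and Ube2u) were at least 2-fold higher and 3 (Ube2t, Ube2m and Ube2o) at least 2-fold lower, against 16.0% and 17.3% of all genes. The same 3 and 3 were called with factors from the trimmed mean of M-values (TMM). The counting interval lay on the higher side of equality for 16 members, on the lower side for 4, and included equality for 9. Of all genes 54.4% had an interval on the higher side and 24.1% on the lower side. The authors' deposited table marks 12 members as higher and 4 as lower in the aged library, of 33 with a p-value there, where it marks 34.4% of all genes with a p-value as higher and 15.6% as lower. Those p-values compare the reads of 2 libraries.

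**Figure D1:**
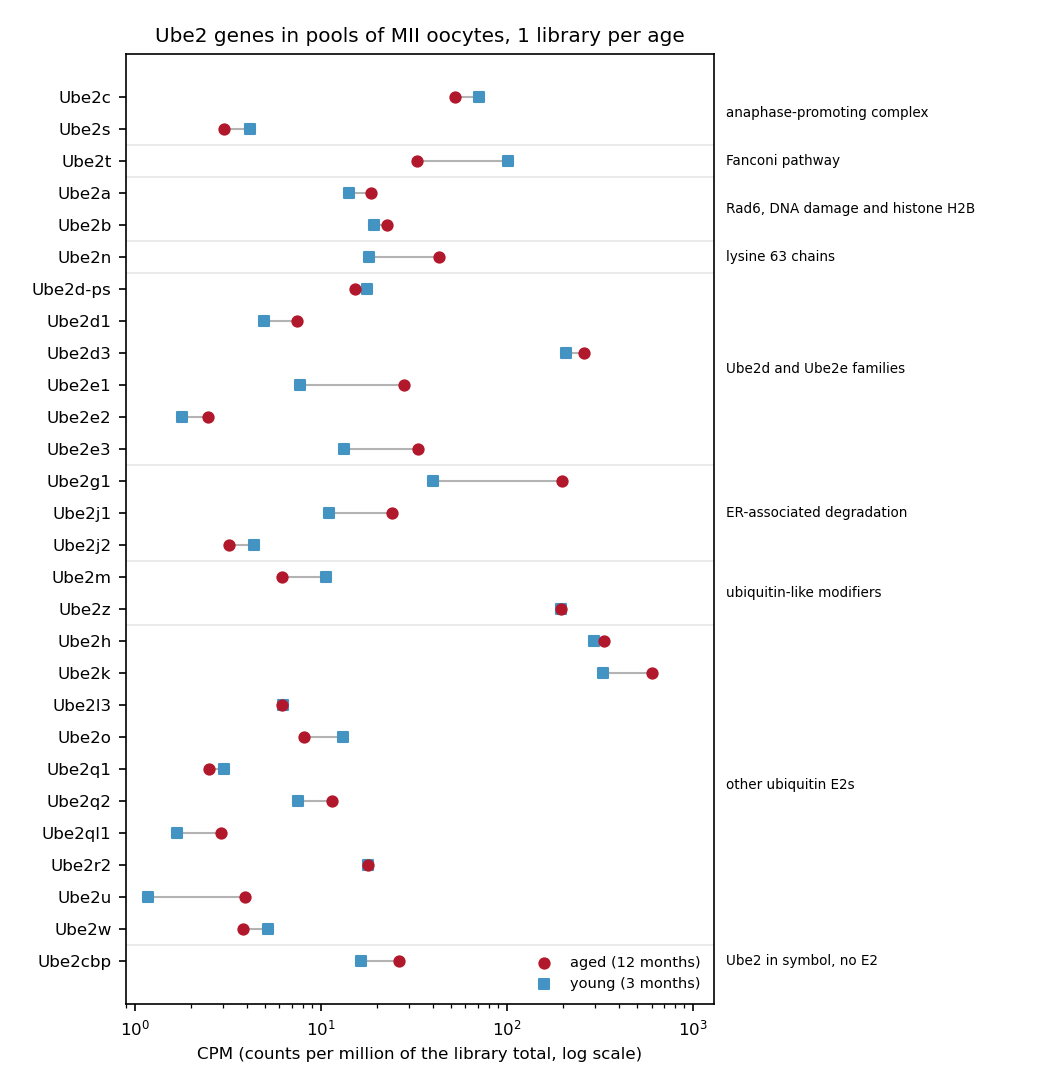
CPM (log axis) of 28 of the 29 Ube2 genes above the floor in the aged library (circles) and the young library (squares), grouped by role. Ube2g1 and Ube2e1 show the widest gaps towards the aged library and Ube2t the widest towards the young one, while Ube2z, Ube2r2 and Ube2l3 have nearly equal values.

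**Figure D2:**
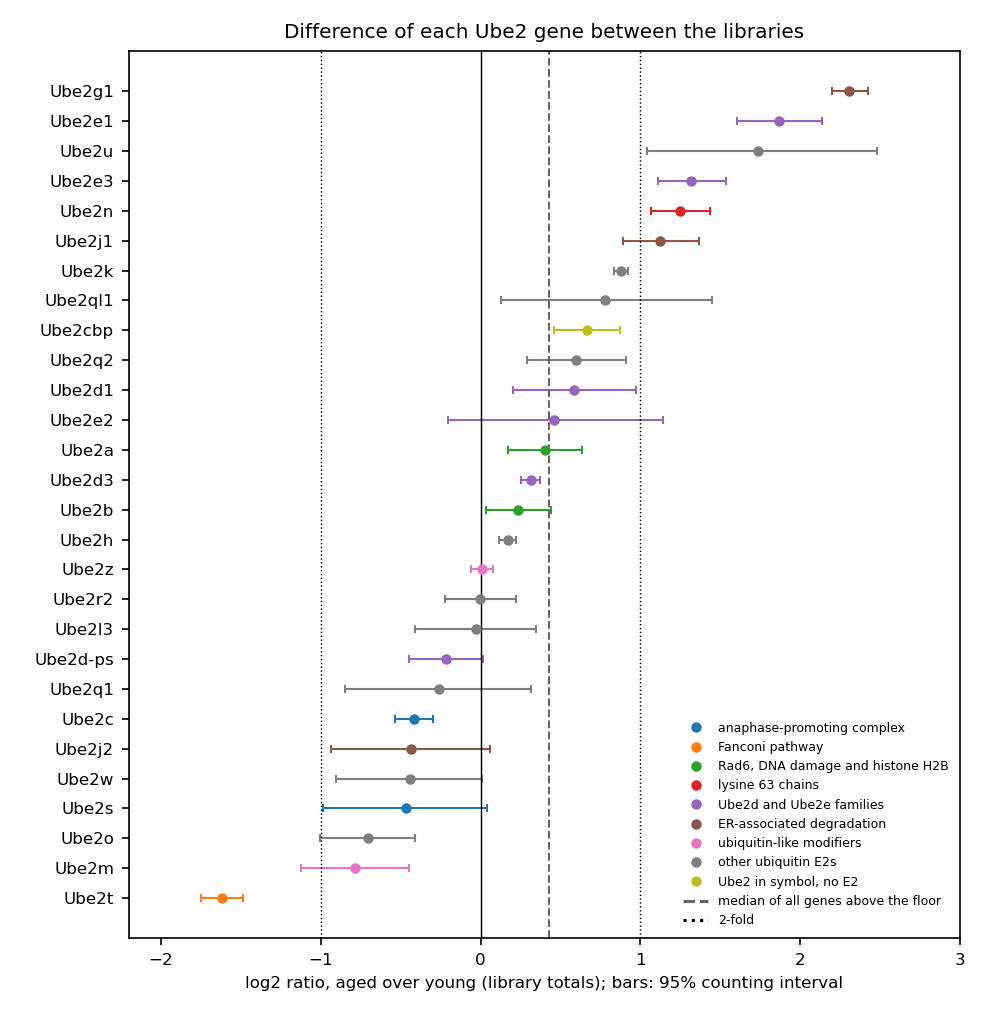
Log2 ratio of aged over young for the same 28 genes with 95% counting intervals, sorted, with dotted lines at 2-fold and a dashed line at 0.43, the median of all genes above the floor. Ube2g1 is highest at 2.31 and Ube2t lowest at −1.62, and most members lie between −1 and 1.

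All Ube2 genes together took 1974 CPM of the aged library (95% exact interval 1954 to 1994) and 1444 CPM of the young one (1427 to 1461), a 1.37-fold higher sum. That is 0.45 on the log2 scale, close to the 0.43 of the median gene. Ube2k alone gave 605 CPM in the aged and 329 CPM in the young library, and without it the sums were 1369 and 1115 CPM, a log2 ratio of 0.30. Ube2k, Ube2h, Ube2d3 and Ube2g1 held 70.7% of the members' counts in the aged library, against 60.5% in the young one. Levels of different genes were compared per length, as counts divided by transcript length and scaled to the same total over all genes with a length. On that scale the aged library had Ube2k first at 246, then Ube2h at 142, Ube2d3 at 135, Ube2g1 at 101 and Ube2z at 97.6. In the young library the order of per-length levels began with Ube2t at 168, followed by Ube2k at 125, Ube2h at 118, Ube2d3 at 101 and Ube2z at 90.2. Ube2t thus took 5.37% of the members' per-length level in the aged pool and 19.7% in the young pool, and Ube2g1 took 9.21% and 2.23%. Without replicates, neighbours as close as Ube2h and Ube2d3 cannot be ordered, and priming from the poly(A) tail makes the per-length scale approximate.

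**Figure D3:**
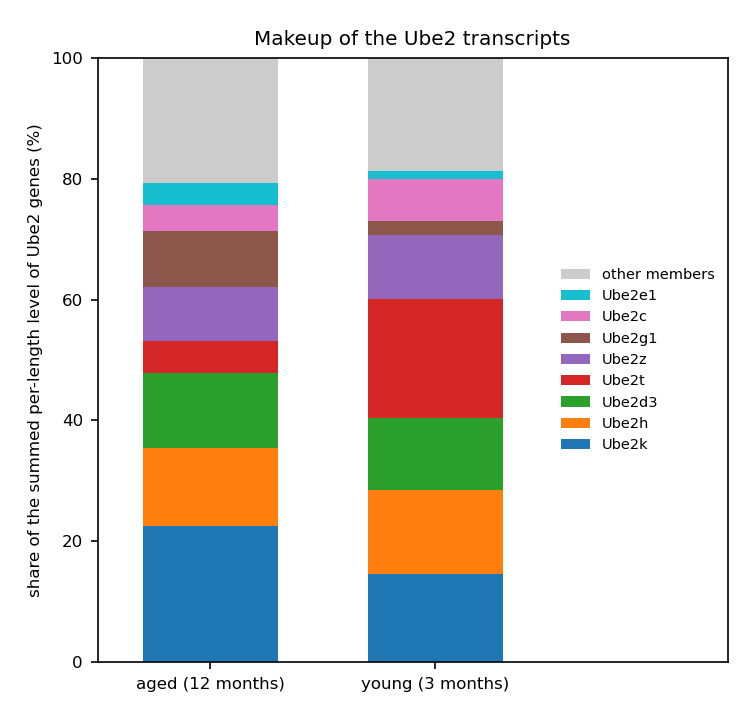
Share (%) of the summed per-length level of the Ube2 genes taken by 8 of them and by the other members, in the aged library (left bar) and the young library (right bar). Ube2t takes 5.37% of the aged bar and 19.7% of the young bar, and Ube2k takes 22.5% and 14.7%.

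The E2s of the anaphase-promoting complex both had lower values in the aged library, by less than 2-fold, and the counting interval excluded equality for Ube2c but not for Ube2s. Ube2c, which starts ubiquitin chains on the complex's substrates, had 986 counts (53.0 CPM) in the aged library, against 1379 counts (70.8 CPM) in the young one, and was 1.34-fold lower (95% counting interval 1.23 to 1.45). Ube2s, which lengthens those chains, was far less abundant with 56 counts (3.01 CPM) in the aged and 81 counts (4.16 CPM) in the young library. Its log2 ratio of −0.47 was close to that of Ube2c at −0.42, but its interval of −0.98 to 0.04 included equality. Relative to the median gene the log2 ratios were −0.84 for Ube2c and −0.89 for Ube2s. The count ratio of Ube2c to Ube2s, which needs no scaling, was 17.6 in the aged and 17.0 in the young library, a ratio of ratios of 1.03 with an exact interval of 0.719 to 1.496. The ratio of Ube2c to Cdc20, an activator of the complex, was 0.259 in the aged and 0.275 in the young library (ratio of ratios 0.94, interval 0.86 to 1.03). The intervals leave room for a difference of up to 1.496-fold in the first case and 1.17-fold in the second. Ube2cbp, the Ube2c-binding gene, went the other way with 490 counts in the aged and 323 in the young library, 1.59-fold higher.

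Ube2t was the 1 member above the floor called lower. It encodes the E2 that works with Fancl to mark Fancd2 and Fanci in the repair of DNA crosslinks. It had 613 counts (33.0 CPM) in the aged library, against 1970 counts (101 CPM) in the young one, 3.07-fold lower with a counting interval of 2.80 to 3.37. Its log2 ratio was lower than that of all but 5.29% of genes above the floor. None of its 50-base words occurred in another annotated gene, and no annotated gene overlapped it. The Rad6 pair, Ube2a and Ube2b, act with Rad18 on the replication clamp PCNA and with Rnf20 and Rnf40 on histone H2B, and Ube2a is needed maternally for the first cleavages of the mouse embryo. Both were within 2-fold. Ube2a had 348 counts in the aged and 276 in the young library (1.32-fold higher, interval 1.12 to 1.55), and Ube2b had 423 and 376 counts (1.18-fold higher, 1.02 to 1.36). Their translated coding sequences are 95.4% identical, yet neither gene shares an exact 50-base word with another gene. Whether the authors' counting kept their reads apart was not tested. The ratio of Ube2a to Ube2b was 0.82 in the aged and 0.73 in the young library, and the interval of their ratio, 0.90 to 1.39, included 1.

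Ube2n, also called Ubc13, builds non-degradative chains in repair and signalling, as a pair with an inactive E2 variant, Ube2v1 or Ube2v2. It was 2.38-fold higher in the aged library (interval 2.10 to 2.70), with 808 counts (43.5 CPM) in the aged and 356 counts (18.3 CPM) in the young library. Its partners were almost without counts. Ube2v1 had 0 counts in the aged and 1 in the young library, and Ube2v2 had 5 and 0 counts. A count of 0 allows up to 0.161 CPM in the aged library, against 0.154 CPM in the young one. Of the 50-base words of Ube2v1, 91.2% also occur in other annotated genes, most of them in Gm20431, which overlaps it on the same strand and had 1 count in the aged and 0 in the young library. For Ube2v2 that share was 9.36%. The sources used here do not give how reads matching several places were handled, so the values of Ube2v1 in particular are uncertain.

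The Ube2d and Ube2e genes encode small, broadly acting E2s that serve many RING ligases. Among those analysed, which do not include Ube2d2a, Ube2d3 was the most abundant. It had 4824 counts (259 CPM) in the aged and 4066 counts (209 CPM) in the young library, 1.24-fold higher (interval 1.19 to 1.30). Ube2d1 was 1.501-fold higher with 139 counts in the aged and 97 in the young library. The pseudogene Ube2d-ps had 285 and 346 counts and a log2 ratio of −0.21 (interval −0.44 to 0.02). The ratio of Ube2d3 to Ube2d-ps differed between the libraries, at 16.9 in the aged and 11.8 in the young one (ratio of ratios 1.44, interval 1.22 to 1.70). Their transcripts have 39.7% and 50.7% GC. After the median ratio of genes of like length and GC content was taken off, log2 ratios were −0.86 for Ube2d3 and −0.72 for Ube2d-ps. The order of the pair thus turned. Ube2d2b had 1 count in each library and the pseudogene Ube2d4 had 0 in the aged and 4 in the young library.

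The Ube2e genes, with the His-Cys-Asn tripeptide shown above, differed more. Ube2e1 had 522 counts (28.1 CPM) in the aged and 150 counts (7.70 CPM) in the young library, 3.64-fold higher with an interval of 3.03 to 4.40. Of its 50-base words 59.0% also occur, read from either strand, in other annotated genes. The gene sharing most is Nkiras1, which overlaps it on the opposite strand and had 5566 counts in the aged and 2953 in the young library, 1.97-fold higher. Whether the counting used strand is not given, so part of the Ube2e1 counts may belong to Nkiras1. Ube2e3, for which that share was 0.545%, had 619 counts (33.3 CPM) in the aged and 260 counts (13.4 CPM) in the young library, 2.49-fold higher (2.15 to 2.89). Ube2e2 had 46 and 35 counts and a log2 ratio of 0.46, its interval of −0.20 to 1.14 including equality. The ratio of Ube2e1 to Ube2e3 was 0.843 in the aged and 0.577 in the young library (ratio of ratios 1.46, interval 1.15 to 1.86). The ratio of Ube2e1 to Ube2e2 was 11.3 in the aged and 4.29 in the young library, and their ratio of ratios was 2.65 (interval 1.59 to 4.37).

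E2s grouped here under degradation of misfolded proteins of the endoplasmic reticulum include Ube2g1, which had the largest difference among all members. Ube2g1, a builder of degradative chains that also works with cullin ligases, had 3705 counts (199 CPM) in the aged library, against 784 counts (40.3 CPM) in the young one. It was 4.95-fold higher with an interval of 4.58 to 5.35, and 95.9% of all genes above the floor had a lower ratio. None of its 50-base words was shared. Ube2g2, a partner of the ligase Syvn1, had only 3 counts in the aged and 12 in the young library, below the floor. The count ratio of Ube2g1 to Ube2g2 was thus 1235 in the aged and 65.3 in the young library, with a wide interval of 5.08 to 104.5 for the ratio of ratios of 18.9. The membrane-anchored Ube2j1 was 2.18-fold higher (1.85 to 2.58) with 452 counts in the aged and 217 in the young library. Its paralogue Ube2j2 had 60 and 85 counts, a log2 ratio of −0.44 with an interval of −0.94 to 0.06. The ratio of Ube2j1 to Ube2j2 was 7.53 in the aged and 2.55 in the young library, a ratio of ratios of 2.95 (2.01 to 4.34). In both families one member was therefore higher in the aged library relative to the other, whatever the scaling.

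Among E2s of ubiquitin-like proteins no member was called. Ube2m, which transfers NEDD8 to most cullins, was 1.72-fold lower (1.36 to 2.18) with 116 counts in the aged and 209 in the young library. Ube2f, which also carries NEDD8, had 3 counts in the aged and 0 in the young library. Ube2z, which receives ubiquitin and Fat10 from the E1 Uba6, was abundant and nearly equal, with 3644 counts (196 CPM) in the aged and 3792 counts (195 CPM) in the young library. Its log2 ratio was 0.01 with an interval of −0.06 to 0.08. Ube2l6, the E2 of the interferon-induced modifier Isg15, had no count.

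Of the remaining ubiquitin E2s 1 of 10 was called, Ube2u, which is best known from the testis and reproductive tract. It had 73 counts (3.93 CPM) in the aged and 23 counts (1.18 CPM) in the young library, 3.32-fold higher (2.06 to 5.57). Its antisense gene Ube2uos had 6 counts in the aged and 0 in the young library. Ube2k, which binds huntingtin and builds degradative chains, was the most abundant member by counts in both libraries. It had 11250 counts in the aged and 6412 in the young library, 1.84-fold higher with an interval of 1.78 to 1.89. Ube2h, the E2 of the CTLH ligase, had 6190 counts in the aged and 5761 in the young library, 1.13-fold higher (1.09 to 1.17). Ube2r2, a relative of Cdc34 that serves SCF ligases, had 336 and 352 counts and a log2 ratio of 0.00 (interval −0.22 to 0.22).

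Ube2l3, which passes ubiquitin to HECT and RBR ligases, had 115 counts in the aged and 123 in the young library. Its log2 ratio was −0.03 (−0.41 to 0.35), and 58.9% of its 50-base words are shared with other genes. Ube2o, a large enzyme that joins E2 and E3 activity, was 1.63-fold lower (1.33 to 2.01) with 151 and 258 counts. Ube2w, which modifies the amino terminus of proteins, had 71 counts in the aged and 101 in the young library, a log2 ratio of −0.44 (−0.90 to 0.01). Ube2q1, loss of which lowers fertility in female mice, had 47 counts in the aged and 59 in the young library, a log2 ratio of −0.26 (−0.85 to 0.32). Its paralogue Ube2q2 was 1.51-fold higher with 214 and 148 counts, and Ube2ql1 1.71-fold higher with 54 and 33 counts. The ratio of Ube2q2 to Ube2q1 was 4.55 in the aged and 2.51 in the young library (ratio of ratios 1.82, interval 1.15 to 2.88).

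Some members share sequence with other genes, so their counts are uncertain where the authors' counting could split reads. More than 10% of the 50-base words were shared for 8 members above the floor and none for 15. Beside Ube2e1 and Ube2l3 these were Ube2h at 46.3%, Ube2q2 at 20.9%, Ube2c at 17.8%, Ube2d3 at 16.5%, Ube2j2 at 13.5% and Ube2n at 10.7%. The gene sharing most with Ube2q2, Gm4895, had 46 counts in the aged and 18 in the young library, and the one sharing most with Ube2c, Tnnc2, had 9 and 10. Spopl, which shares most with Ube2d3, had 130 counts in the aged and 102 in the young library, and Ydjc, for Ube2l3, had 23 and 19.

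Across members the ratio followed the base composition of the transcript, as it did across all genes. Spearman's rho between GC content and the log2 ratio was −0.49 over 29 members and −0.40 over 9902 genes, as a description of genes that share both libraries. In the 9 most AT-rich members (39.7% to 44.7% GC) the median was 0.88 on the log2 scale, and 4 of them were called higher. Of all genes, whatever their GC content, 27.9% were called higher and 10.6% lower. The share among all genes of like GC content was not computed. The 9 members with the highest GC content (50.8% to 63.4%) had a median of −0.42 and none was called higher or lower. Ube2c at 55.5%, Ube2s at 58.5% and Ube2m at 63.4% GC are in this last group, and Ube2g1 at 40.9% and Ube2n at 40.7% in the first. After the median ratio of genes of like length and GC content was taken off, Ube2g1 remained higher at 1.13 on the log2 scale and Ube2e1 at 1.04. On the same corrected scale Ube2u was at 0.85, Ube2e3 at 0.67, Ube2j1 at 0.24 and Ube2n at 0.07, which were no longer called. Ube2t was at −2.26 after that correction, Ube2w at −1.45, Ube2j2 at −1.02, Ube2c at −0.29 and Ube2s at −0.01. Ube2m and Ube2o, which were 2-fold lower relative to the median gene, were at −0.34 and −0.61, within 2-fold. Ube2k was at −0.09. The medians of the 9 most AT-rich members and of the 9 with the highest GC content were −0.09 and −0.34 after the correction. The part of base composition in each difference was not tested beyond this.

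**Figure D4:**
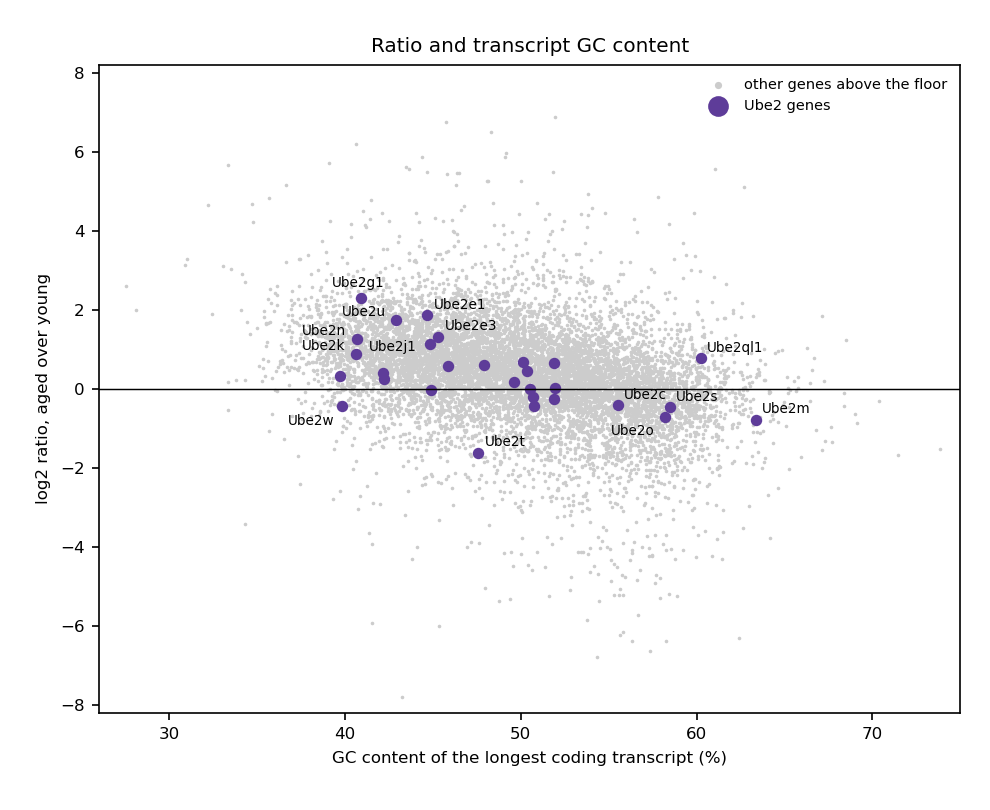
Log2 ratio of aged over young against GC content (%) of the longest coding transcript, for the 29 Ube2 genes (purple) and all other genes above the floor (grey). Members of low GC content lie mostly above 0 and those above 55% mostly below, except Ube2ql1, while Ube2t, at 47.6% GC, lies lowest of the members.

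The genes around the E2s in the conjugation pathways were taken from 9 lists. Their counts stand against the 27.9% of all genes that were 2-fold higher and the 10.6% that were 2-fold lower. Relative to the median gene those shares were 16.0% and 17.3%. List counts and medians were not corrected for length and GC content, although ratios fell with GC content across all genes. Among E1 enzymes, which load the E2s, 5 of the 8 above the floor passed 2-fold towards the aged library and none towards the young one, and their median on the log2 scale was 1.14. Relative to the median gene 2 of them were higher and 1 lower. Uba1, the main E1 of ubiquitin, was 2.18-fold higher with 318 CPM in the aged and 146 CPM in the young library. Uba6, which loads Ube2z, was 9.70-fold higher from 176 and 19 counts. The SUMO E1 subunit Uba2 was 3.22-fold higher, while its partner Sae1 was within 1.02-fold. The E1 of NEDD8 was split, Nae1 being 2.22-fold higher and Uba3 1.69-fold lower. After the length and GC correction above, log2 ratios were 0.66 for Uba1, 2.17 for Uba6, 1.03 for Uba2 and −0.47 for Sae1. Nae1 was then at 0.22 and Uba3 at −1.77.

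Among 13 ubiquitin and ubiquitin-like genes with enough counts, 6 passed 2-fold towards the aged library and 4 towards the young one, the median being 0.75, and relative to the median gene 3 and 4 did. The polyubiquitin gene Ubb was 1.40-fold higher with 3073 counts in the aged and 2292 in the young library. Rps27a, which encodes ubiquitin fused to a ribosomal protein, was 3.40-fold lower with 9 and 32 counts, and Map1lc3a, an autophagy modifier, was 3.23-fold lower. Among 8 genes with an E2 fold but another name, 2 were higher and 1 lower, with a median of 0.51, and 2 and 2 relative to the median gene. Cdc34, the E2 of SCF ligases, had 8530 counts in the aged and 7324 in the young library, 1.22-fold higher. Atg3, the E2 of autophagy, was 2.92-fold higher and Aktip 3.79-fold higher. Ufc1, the E2 of Ufm1, was 2.99-fold lower with 15 and 47 counts and the giant E2 Birc6 1.69-fold lower. Corrected for length and GC content, log2 ratios were 0.73 for Cdc34, 0.66 for Atg3, 1.12 for Aktip, −1.73 for Ufc1 and −1.55 for Birc6.

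Subunits and activators of the anaphase-promoting complex showed a low median of 0.18, with 1 of 16 higher and 1 lower, and 1 and 2 relative to the median gene. Anapc2, the cullin-like subunit, was 2.83-fold higher, and Anapc11, the RING subunit that binds Ube2c, 1.25-fold lower. Cdc16, a scaffold subunit, was 1.94-fold higher. Fzr1, the activator Cdh1, was 2.51-fold lower, and Cdc20 1.25-fold lower. Of 9 inhibitors and substrates of the complex 3 were higher and none lower, with a median of 0.70, and 2 and 0 relative to the median gene. Fbxo5, the inhibitor Emi1, was 3.05-fold higher, Ccna2 2.08-fold and Ccnb1, encoding cyclin B1, 1.89-fold. Pttg1, encoding the substrate securin, was 4.94-fold higher. With the length and GC correction above, log2 ratios were 1.60 for Pttg1 and 0.72 for Fbxo5. Those of Ccna2 and Ccnb1 were 0.13 and 0.11.

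Of 27 HECT and RBR ligases 8 were higher and none lower, with a median of 0.34, a share of higher genes near that of all genes. Relative to the median gene 3 were higher and 1 lower. Wwp2 was 3.69-fold higher, Arel1 2.85-fold, Herc4 2.83-fold from 46 and 17 counts and Ube3a 2.49-fold. Of 11 SUMO ligases and proteases 6 were higher and none lower, with a median of 1.03, and 3 and 1 relative to the median gene. Pias2 and Ranbp2, both SUMO ligases, were each 3.79-fold higher and the protease gene Senp1 3.31-fold. Cullin, RING and NEDD8 genes had the highest median, 1.15, with 9 of 15 higher and none lower, and 7 and 1 relative to the median gene. Cul3 was 4.36-fold, Skp1a 4.26-fold and Cul4b 4.02-fold higher. The median GC content of this list was 43.1%, against 49.7% for all genes above the floor. With the length and GC correction above, log2 ratios were 1.16 for Cul3, 1.20 for Skp1a, 0.85 for Cul4b and 0.15 for Ube3a. Those of Wwp2, Arel1 and Herc4 were 1.94, 0.98 and 0.40. Pias2, Ranbp2 and Senp1 were at 1.15, 0.76 and 1.20. Of 17 ligases that work with Rad6, Ubc13 or Ube2t and related E2s 4 were higher and 1 lower, with a median of 0.58, but 3 higher and 4 lower relative to the median gene. Rnf20, which acts on histone H2B, was 8.40-fold higher with 4718 and 588 counts. Rnf40, named with it above, went the other way, 1.765-fold lower with 257 and 475 counts. March5 was 3.34-fold, Rnf168 2.74-fold and Rad18 1.496-fold higher. After the correction above, log2 ratios were 2.35 for Rnf20, −0.73 for Rnf40, 1.14 for March5, 0.70 for Rnf168 and −0.19 for Rad18. Relative to the median gene each list median is lower by 0.43, which leaves that of the anaphase-promoting complex and of the HECT and RBR ligases below 0, like that of the Ube2 genes.

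**Figure D5:**
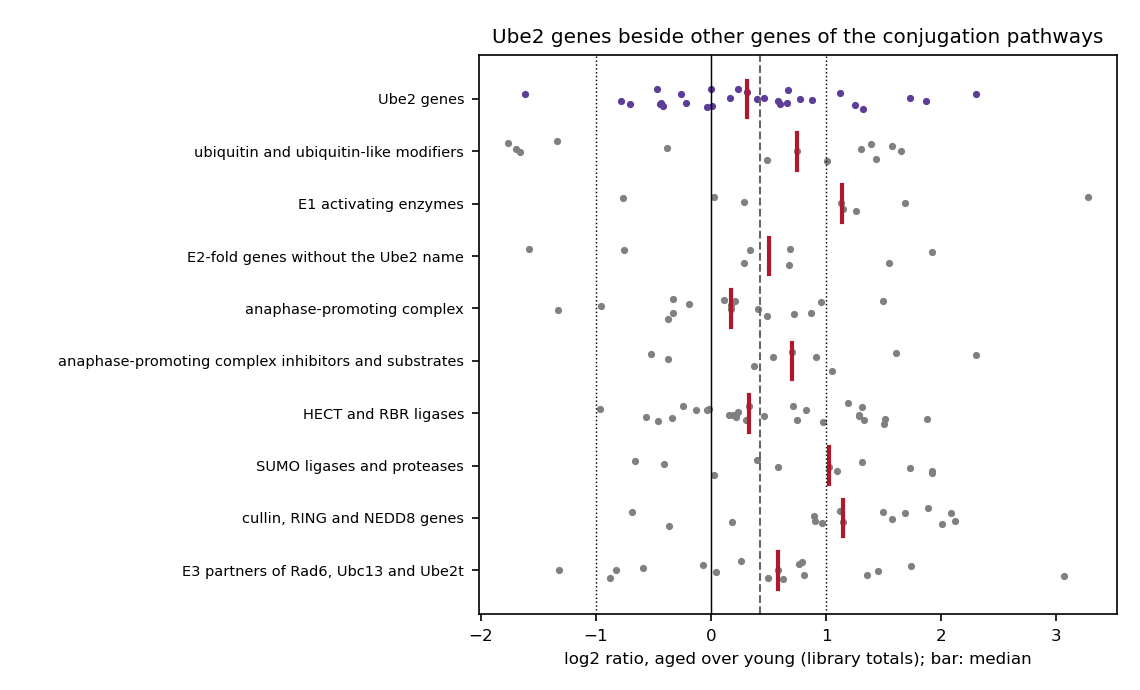
Log2 ratio of aged over young for genes above the floor in 10 groups, the Ube2 genes on top in purple and 9 lists of pathway genes in grey, with red bars at the medians, dotted lines at 2-fold and a dashed line at the median of all genes. The median of the Ube2 genes, 0.31, is below those of E1 enzymes at 1.14 and of cullin, RING and NEDD8 genes at 1.15, and above that of the anaphase-promoting complex at 0.18.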

How the data were processed

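The members and gene lists were chosen with earlier results of these data known. Per the labels' protocols, each pool of 18 oocytes was lysed in a single tube, cDNA was primed with oligo(dT) and amplified, and sequencing used the SOLiD system. The build was mm9, per the submitters' processing notes. The sources used here name no aligner, counting program or annotation. The deposited values are raw counts per gene and library, which sum to different totals. The log2 fold changes deposited by the authors have young on top. Their deposited score, q-value and p-value columns set the reads of 2 libraries against each other and were used only for the number of members marked. Symbols were matched by Ensembl ID to GENCODE M21 names (85.5% of rows, 93.7% of counted rows). That release describes GRCm38, so sequence coordinates are GRCm38 and no mm9 coordinates are given. Transcript length and GC content are those of the longest protein-coding transcript, else the longest of any type.

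Counts were divided by their library's total, genes averaging under 20 counts were left out, and a count of 0 set to 3 for ratios. Intervals are exact (Clopper-Pearson) at 95% on the share of a gene's reads that came from aged oocytes, or exact conditional odds ratio intervals for gene pairs. PCR reads without molecular identifiers are not independent molecules, so only counting error is covered by intervals and floors. The ratio to library totals and its interval were tested on simulated counts that held counting error only. Amplification noise, a GC trend, the other scalings and the pair intervals were not part of that simulation. A single member and some pathway genes are counted in the totals but not reported here by name. Otherwise the text names every member with a count, the 3 members of each list with the log2 ratio furthest from 0, and key pathway genes whatever their value. The software was Python 3.11.15, scipy 1.17.1, numpy 2.4.6, biopython 1.88, pandas 2.3.3 and matplotlib 3.10.9, with edgeR 4.0.16 and DESeq2 1.42.0 in R 4.3.3 for scaling factors only. Alternatives changed the scaling, floor, zero handling, fold threshold, members, and length and GC correction.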

Additional observations from a re-analysis of the deposited data

How the results depend on the processing

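With library totals 6 members were higher and 1 lower (all genes 27.9% and 10.6%), with a median log2 ratio of 0.31. With TMM there were 3 higher and 3 lower (median −0.061), against 17.2% and 16.3% of all genes. With DESeq2 size factors there were 3 and 3 (−0.0429), against 17.6% and 16.0%. Centred on the median gene 3 and 3 were called (−0.11), against 16.0% and 17.3%. Totals without the 100 most abundant genes gave 4 and 2 (0.0272), against 19.5% and 14.6%. These scalings move all genes alike, by −0.37, −0.36, −0.43 and −0.29 on the log2 scale. Removing the length and GC bin median left 2 higher and 3 lower (−0.29). Without a floor there were 7 and 2 (all genes 29.6% and 15.4%), the lower ones including Ube2g2. A floor of 100 counts gave 5 and 1 (all genes 25.7% and 7.39%), since fewer genes were kept. With 5 counts added the calls were 6 and 1 (all genes 26.5% and 9.76%). A threshold of 1.5-fold gave 12 and 3 (all genes 43.3% and 17.1%), and 3-fold gave 3 and 1 (12.8% and 5.51%). Leaving out members with proteins over 90% identical, translated from GENCODE coding sequences, kept 6 and 1. None of those left out had been called, so these counts could not change. Leaving out members sharing over 10% of their 50-base words, chosen after the data were seen, left 4 and 1 with a median of 0.40, Ube2e1 and Ube2n being among those left out. Protein-coding members with the E2 fold, also chosen after the data were seen, gave 6 and 1, again because no called member was left out. The sums of 1974 CPM in the aged and 1444 CPM in the young library became 1369 and 1115 CPM without Ube2k. Ube2t was called lower, and Ube2g1 higher, under each of these alternatives, but leaving out other members could not change their calls. Ube2e1 was called higher in all but the one that left it out. No paired analysis was possible because there is 1 library per age. Depth limits the members with few counts, such as Ube2s and Ube2e2, whose intervals include equality.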
